A study of Oryza sativa with 12 samples.

Results

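Nicotianamine synthase genes were followed across 12 RNA-seq libraries of rice seedlings. They were taken by name: of the 4 names searched, NAS1, NAS2 and NAS3 each had 1 row among the 112071 features of every library, and NAAT1, the nicotianamine aminotransferase, is not analysed here. The names were picked with levels from these same libraries in view. The levels and differences of the 3 genes are therefore given as a description, without exact p-values. Whether these genes passed a threshold is stated for the fits, and no conclusion is drawn from it. The seedlings were of cultivar ZH11 and 14 days old, and were grown on 1/2 MS medium under 12 h of light and 12 h of dark. Genotype and treatment gave 4 groups: wild type control, wild type with 10 µM Br-cGMP for 5 h, pkg control, and pkg with 10 µM Br-cGMP for 5 h. Br-cGMP is an analogue of cyclic GMP. The pkg seedlings carry the genotype PKG-/-, a mutation of a cGMP-dependent protein kinase, and neither the type of mutation nor the number of lines is stated. Each group had 3 libraries, described as biological repetitions.

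Nicotianamine synthase joins molecules of S-adenosylmethionine into nicotianamine, which binds iron, zinc, copper and other metals and carries them between tissues. In grasses, nicotianamine is also the starting point of deoxymugineic acid, the phytosiderophore that roots release to take up ferric iron, and NAAT1 catalyses the step that leads there. In rice, NAS1 and NAS2 are known as genes of roots that rise strongly under iron shortage, while NAS3 is known from both shoots and roots and responds differently in each.

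NAS2 (OS03G0307200) lay on the plus strand of chromosome 3 from 10926469 to 10927729, and NAS1 (OS03G0307300) on the minus strand from 10929507 to 10930895. The pair faced each other with 1777 bases between their 3′ ends. NAS3 (OS07G0689600) lay on the plus strand of chromosome 7 from 29323098 to 29324607. The build of these coordinates is not stated. The length listed for each gene, 1389 bases for NAS1, 1261 for NAS2 and 1510 for NAS3, was the same as its span, so none was listed with an intron. NAS1 and NAS3 were each overlapped by 1 feature on the other strand, and both of those features were listed at 0 in all 12 libraries. NAS1 and NAS2 are close copies of each other, and how reads that match both were assigned is not stated, so the split between them is uncertain.

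Levels are in FPKM, reads scaled to gene length and to library size, which allows genes to be compared with each other. Whole reads could be recovered from them, between 6667261 and 9438909 per library. Wild type control 3, pkg control 3 and pkg Br-cGMP 3 stood apart from the rest. Their mean log2(FPKM + 1) over 4 genes of roots (LSI2, NIP2-1, PIP2-3 and OS02G0662000) was 1.25, 0.75 and 1.15, against 5.03 to 8.87 in the other 9 libraries. No wild type Br-cGMP library was among them. They are called the root-low libraries here, after these 4 genes only. Of 9 other root markers tested, 2 were lower in each of these libraries than in any other, and the rest overlapped the other libraries. In seedling RNA, fewer root cells, less RNA per root cell and lower expression of some root genes cannot be told apart, and none was tested.

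NAS1 covered a wide range of levels, and its lowest libraries were the root-low ones. In wild type control it stood at 143 FPKM in replicate 1, 30.0 in replicate 2 and 0.392 in replicate 3. In wild type Br-cGMP it stood at 158, 127 and 48.2 FPKM. In pkg control it stood at 48.5, 23.5 and 0.445 FPKM, and in pkg Br-cGMP at 29.0, 145 and 10.7 FPKM. Replicate 3 was the lowest library of each group, and the 4 groups overlapped one another. The value in wild type control 3 rested on 4 reads, with an exact 95% Poisson interval of 0.107 to 1.00 FPKM, whereas wild type control 1 held 1862 reads. Such intervals cover counting error only.

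NAS2 followed NAS1 closely at a slightly higher level. It stood at 154, 37.9 and 2.59 FPKM in the wild type control libraries 1 to 3, and at 188, 163 and 67.6 FPKM in wild type Br-cGMP. In pkg control it stood at 77.3, 27.4 and 0.490 FPKM, and in pkg Br-cGMP at 39.6, 188 and 10.7 FPKM. The same 3 libraries were lowest for both genes. NAS2 was above NAS1 in 11 of 12 libraries. Over the 9 libraries that were not root-low, the NAS2 level was 1.08 to 1.60 times that of NAS1, with a median of 1.28.

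NAS3 was far steadier. It stood at 32.7, 31.1 and 27.4 FPKM in wild type control, and at 39.7, 61.8 and 37.3 FPKM in wild type Br-cGMP. In pkg control it stood at 46.1, 45.8 and 27.6 FPKM, and in pkg Br-cGMP at 29.2, 61.3 and 24.8 FPKM. The 3 root-low libraries were again the lowest, but the highest library was only 2.49 times the lowest. For NAS1 this ratio was 402 and for NAS2 384. The SD of log2(FPKM + 1) over the 12 libraries was 2.38 for NAS1, 2.29 for NAS2 and 0.43 for NAS3. Of the 25238 features tested, 0.491% had a larger SD than NAS1, 0.579% a larger one than NAS2 and 58.7% a larger one than NAS3.

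**Figure D1:**
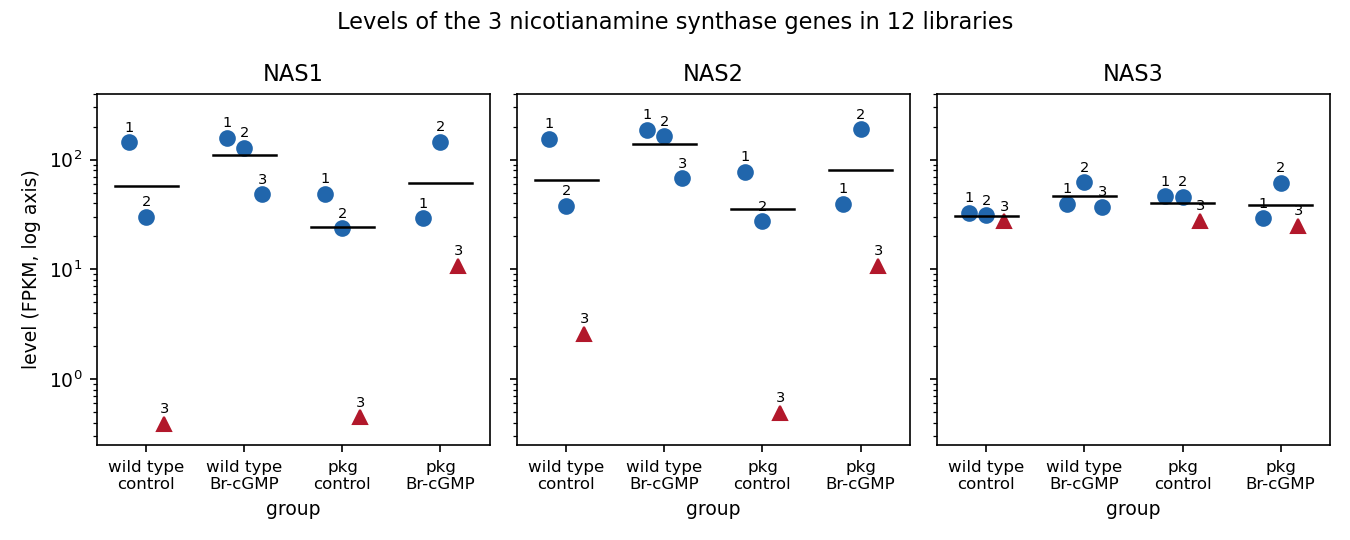
Level of NAS1, NAS2 and NAS3 (FPKM, log axis) in each library, by group. Numbers give the replicate, red triangles mark the 3 root-low libraries, blue circles the other 9, and black bars the group mean. NAS1 and NAS2 fall to between 0.392 and 10.7 FPKM in the root-low libraries, while NAS3 stays between 24.8 and 61.8 FPKM throughout.

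All 3 genes lay lower in each root-low library than in any of the other 9, a pattern shown by 4.74% of the features tested. The 9 libraries held NAS1 at 23.5 to 158 FPKM (median 48.5), against 0.392 to 10.7 FPKM in the root-low libraries. They held NAS2 at 27.4 to 188 FPKM (median 77.3), against 0.490 to 10.7 FPKM. NAS3 stood at 29.2 to 61.8 FPKM (median 39.7) in the 9 libraries and at 24.8 to 27.6 FPKM in the root-low ones. For NAS3 the gap lay within counting error. The 95% Poisson interval was 24.42 to 31.12 FPKM in pkg control 3, its highest root-low library. It was 26.35 to 32.29 FPKM in pkg Br-cGMP 1, the lowest of the other 9. The ratio of the medians was 109 for NAS1, 29.8 for NAS2 and 1.45 for NAS3.

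The root-low libraries were not alike for NAS1 and NAS2. In pkg Br-cGMP 3, NAS1 had 118 reads and stood at 10.7 FPKM, with a 95% Poisson interval of 8.85 to 12.8 FPKM. That was 24.0 times its level in pkg control 3 and 27.3 times that in wild type control 3. NAS2 in pkg Br-cGMP 3 was at 21.8 times its level in pkg control 3 and at 4.12 times that in wild type control 3. The silicon exporter gene LSI2 was at 0.181 FPKM in pkg Br-cGMP 3, was at 0.196 FPKM in wild type control 3, and was listed at 0 in pkg control 3. MT4C, a metallothionein gene that was low in the same libraries, was at 7.83, 5.48 and 4.24 FPKM in that order. These are single libraries, so the difference between them has no replicate check.

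The makeup of the summed nicotianamine synthase level changed with these levels. The sum over the 3 genes was 96.7 to 395 FPKM in the 9 libraries and 28.6 to 46.2 FPKM in the root-low ones. NAS3 made up 9.92% to 47.4% of the sum in the 9 libraries, with a median of 24.4%. Its share was 90.2% for wild type control 3, 96.7% for pkg control 3 and 53.8% for pkg Br-cGMP 3. NAS2 was the larger of the chromosome 3 pair in all 9 libraries, at 28.3% to 48.8% of the sum. NAS2 exceeded NAS3 in 8 of the 9 libraries and NAS1 exceeded NAS3 in 6.

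**Figure D2:**
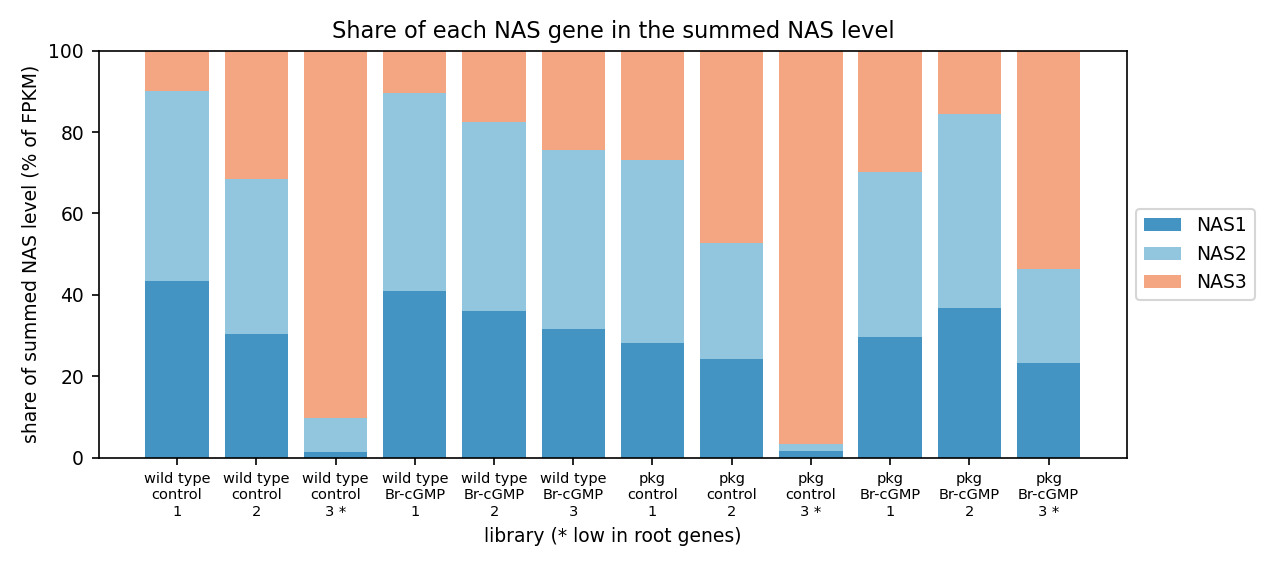
Share of each gene in the summed FPKM of NAS1, NAS2 and NAS3, per library (bars, % of FPKM), with an asterisk for root-low libraries. NAS3 holds 53.8% to 96.7% in the 3 root-low libraries and 47.4% or less in the other 9.

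NAS1 and NAS2 moved together also among libraries that were not root-low. Over those 9 libraries the log2(FPKM + 1) levels of NAS1 and NAS2 correlated at a Pearson r of 0.99 and a Spearman rho of 0.95. Without the 2 libraries farthest from the NAS1 median r was 0.984. NAS3 correlated with NAS1 at r = 0.439 (rho 0.4; 0.34 without the 2 farthest) and with NAS2 at r = 0.477 (rho 0.533; 0.581). With the mean of the 4 root genes, r was 0.585 for NAS1, 0.613 for NAS2 and 0.775 for NAS3, and 0.366, 0.452 and 0.609 without the 2 libraries farthest from the median of that mean. The 9 points mix the 4 groups, so these values describe the libraries and carry no p-value.

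**Figure D3:**
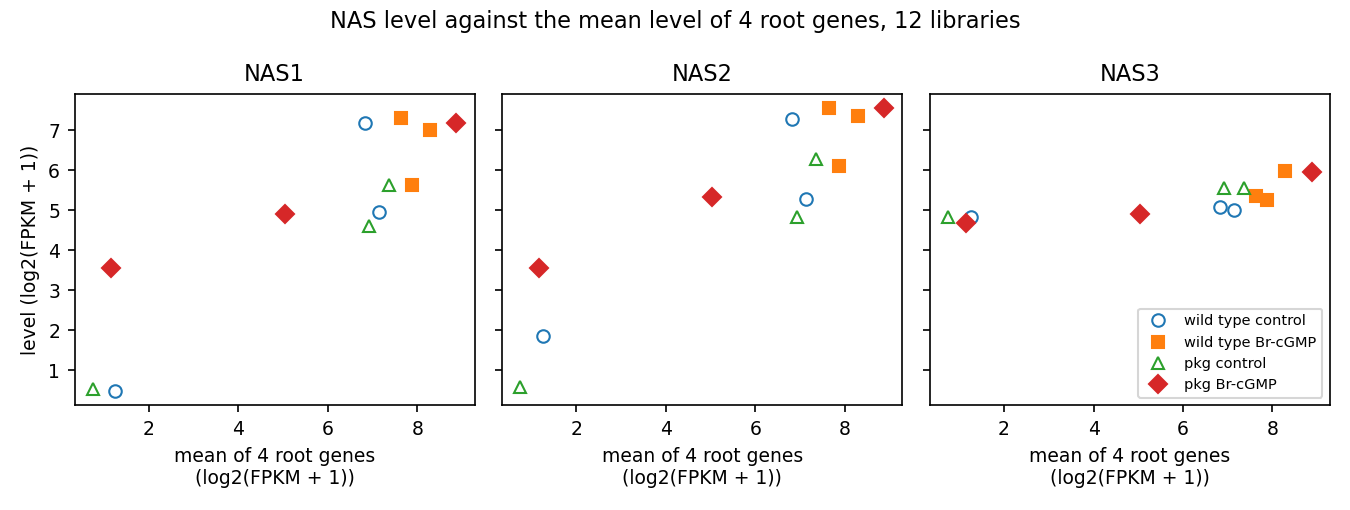
Level of each gene (log2(FPKM + 1)) against the mean level of 4 root genes (log2(FPKM + 1)) in the 12 libraries, with a symbol for each group. The 3 root-low libraries form a cluster at a root gene mean of 0.75 to 1.25, and pkg Br-cGMP 3 is the highest of these 3 for NAS1 and NAS2.

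The named genes with the most similar pattern were looked for among 864 with a mean of at least 5 FPKM. Over all 12 libraries, the 4 most like NAS1 by Pearson r were NRAT1 (r = 0.934), an aluminium transporter gene, the silicon channel gene NIP2-1 (0.91), LSI2 (0.905) and the aquaporin gene PIP2-3 (0.904). The same 4 genes came first for NAS2, with NRAT1 at 0.943, NIP2-1 at 0.931, PIP2-3 at 0.923 and LSI2 at 0.918. NIP2-1, LSI2 and PIP2-3 are among the genes whose mean set the root-low libraries. None of the 4 was among the first 4 over the 9 libraries alone. NRAT1 ranged from 6.47 to 50.8 FPKM where the root genes were high, and from 0.165 to 1.07 FPKM in the root-low libraries, with the highest of these 3 values in pkg Br-cGMP 3. Over the 9 libraries alone, the beta-expansin gene EXPB6 came first for both NAS1 (r = 0.948) and NAS2 (0.94), followed by TULP3 (0.833 and 0.834). For NAS3 the leading genes over 12 libraries were GSK2 (r = 0.927), a kinase gene of brassinosteroid signalling, BADH1 (0.917), a betaine aldehyde dehydrogenase gene, IAA9 (0.904) and HMA4 (0.902), a metal-transporting ATPase gene. Over 9 libraries they were CIN6 (0.951), a cell wall invertase gene, MADS27 (0.93), RR26 (0.929) and AMPD (0.927).

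In wild type, NAS1 and NAS2 had higher means with Br-cGMP. On the log2(FPKM + 1) scale, most of the size of that difference came with wild type control 3. NAS1 averaged 57.8 ± 75.3 FPKM (SD, n = 3) in control and 111 ± 56.5 with Br-cGMP, and NAS2 64.8 ± 79.2 and 139.5 ± 63.5 FPKM. Without wild type control 3 the control means were 86.6 FPKM for NAS1 and 95.95 FPKM for NAS2. On the log2(FPKM + 1) scale, from limma fitted to all 25238 features, the differences (treated minus control) were 2.44 ± 1.73 (SE) for NAS1 and 2.21 ± 1.65 for NAS2. Without wild type control 3 alone they were 0.58 ± 1.52 and 0.73 ± 1.62, and without all 3 root-low libraries 0.58 ± 0.91 and 0.73 ± 0.89. Without wild type control 1 alone they rose to 3.93 ± 1.73 and 3.44 ± 1.73. NAS3 averaged 30.4 ± 2.74 FPKM in control and 46.2 ± 13.5 with Br-cGMP, a difference of 0.56 ± 0.34, and of 0.48 ± 0.35 without the root-low libraries. Its 3 treated libraries lay above all 3 controls. Among all features 8.88% were placed that way and 4.86% the opposite way, and NAS1 and NAS2 overlapped between the groups. No feature passed the adjusted threshold of 0.05 in this comparison (0%), so 0 of 3 genes did. At an unadjusted p under 0.05, limma gave 1346 features and none of the 3 genes, and limma-voom on the recovered reads called 0.

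The 16 genes of the root marker list summed to 417 to 4071 FPKM (median 3814) in wild type control and to 3710 to 9123 FPKM (median 6678) with Br-cGMP. In pkg the sums were 381 to 4050 FPKM (median 2503) in control and 689 to 8275 FPKM (median 2427) with Br-cGMP. Of 13 root markers tested, 10 lay above control in the wild type response and 9 in the pkg response. The 4 genes whose mean set the root-low libraries are among the 13, so their low level there is given by that choice. Of the other 9 markers tested, LSI3 and MT4C were lower in each root-low library than in any other library, as were 4.74% of all features. In the root-low libraries PIP2-3 was listed at 0, LSI2 was at most 0.196 FPKM and OS02G0662000 at most 0.653 FPKM, whereas the phosphate transporter gene PHT1-1 stood at 125 to 480.5 FPKM there and at 102 to 472 FPKM in the other 9. The part of this in the NAS differences was not tested beyond the values without these libraries and with the root covariate. None of the 13 passed the adjusted threshold in any of the 5 comparisons (smallest adjusted p = 0.383 by limma). The shoot list had 5 genes, of which CAB1R and CAB2R were listed at 0 in all libraries. Its sums were 703 to 1624 FPKM in wild type control and 612 to 1469 with Br-cGMP. For pkg they were 738 to 4848 FPKM in control and 1217 to 2417 with Br-cGMP. RBCS, the gene of the small subunit of Rubisco, was its most abundant gene and stood at 562 to 4654 FPKM.

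In pkg seedlings, the means of NAS1 and NAS2 were higher with Br-cGMP, by less than the standard error of the fit without a replicate block. NAS1 averaged 24.2 ± 24.0 FPKM (SD, n = 3) in pkg control and 61.7 ± 73.0 with Br-cGMP, a difference of 1.62 ± 1.73. NAS2 averaged 35.1 ± 39.0 and 79.5 ± 95.3 FPKM, a difference of 1.59 ± 1.65. Both groups hold a root-low library, and without the root-low libraries the differences were 0.93 ± 1.00 for NAS1 and 0.89 ± 0.97 for NAS2. Same-numbered pkg libraries deviated together. With the replicate number as a block the standard errors were 1.00 for NAS1 and 0.93 for NAS2, below the differences of 1.62 and 1.59. That block spanned all 12 libraries, also those of wild type, where the numbers do not pair them. It is thus no paired fit of the pkg libraries alone. All 3 root-low libraries are numbered 3, so the block also takes up the low level they share. Nothing is concluded from the smaller standard errors. With the root gene mean as covariate the values were 1.62 ± 0.77 and 1.58 ± 0.64. The NAS2 difference turned to -0.08 without pkg control 3 alone. NAS3 averaged 39.8 ± 10.6 FPKM in pkg control and 38.4 ± 19.9 with Br-cGMP, a difference of -0.13 ± 0.34, which turned to 0.01 without pkg Br-cGMP 1 and to 0.12 without pkg Br-cGMP 3. The libraries of the 2 groups overlapped for all 3 genes, and of all features 5.12% did not overlap, 2.71% being higher and 2.41% lower with Br-cGMP. No feature passed the adjusted threshold by limma (0%) or by limma-voom, none of the 3 genes included. Limma gave 685 of 25238 features and none of the 3 genes at an unadjusted p under 0.05.

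Between genotypes without Br-cGMP, the means of NAS1 and NAS2 were lower in pkg and that of NAS3 was higher, each within the spread between libraries. The differences (pkg minus wild type) were -0.61 ± 1.73 for NAS1, -0.90 ± 1.65 for NAS2 and 0.35 ± 0.34 for NAS3. Without the root-low libraries, 1 in each group, they were -0.94 ± 1.00, -0.72 ± 0.97 and 0.51 ± 0.39. NAS1 and NAS2 turned to 0.88 and 0.34 without wild type control 1, and to 0.92 and 0.76 without pkg control 3. All 3 genes overlapped between the genotypes, where 10.7% of features did not (5.27% higher and 5.44% lower in pkg). The features past the adjusted threshold made up 0.341%, 0.206% higher and 0.135% lower, and 0 of the 3 genes were among them.

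Under Br-cGMP, all 3 means were lower in pkg. The differences were -1.43 ± 1.73 for NAS1, -1.52 ± 1.65 for NAS2 and -0.34 ± 0.34 for NAS3. Of these 6 libraries only pkg Br-cGMP 3 was root-low, and without the root-low libraries the differences were -0.59 ± 0.91, -0.55 ± 0.89 and -0.09 ± 0.35. When the root gene mean entered the fit as a covariate, those of NAS1 and NAS2 turned to 0.59 ± 0.83 and 0.45 ± 0.69. In pkg, replicates 1 and 3 were below all wild type libraries for each of the 3 genes, while replicate 2, at 145 FPKM for NAS1, lay within or above the wild type range. All 3 genes thus overlapped, where 13.3% of features did not (6.65% higher and 6.65% lower in pkg). Here too 0.341% of features passed the adjusted threshold, 0.202% higher and 0.139% lower, with 0 of the 3 genes. At an unadjusted p under 0.05 limma gave 1317 features between genotypes without Br-cGMP and 2389 with it, again none of the 3 genes. Limma-voom called 108 and 91 features at the adjusted threshold.

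The response in pkg minus the response in wild type was -0.82 ± 2.45 for NAS1, -0.62 ± 2.34 for NAS2 and -0.68 ± 0.49 for NAS3. Without the root-low libraries the values were 0.35 ± 1.35, 0.17 ± 1.31 and -0.60 ± 0.52. The sign for NAS1 and NAS2 also turned without wild type control 3 (1.04 and 0.86), pkg control 1 (0.20 and 0.58) or pkg Br-cGMP 3 (0.01 and 0.35), and with the root gene mean as covariate (1.15 ± 1.13 and 1.31 ± 0.95). The interaction passed the adjusted threshold for 0.00396% of features, with 0 of the 3 genes, and limma-voom called 0 features at that threshold. Limma gave 523 features and none of the 3 genes at an unadjusted p under 0.05. In order of their group means, NAS1 and NAS2 ran from wild type Br-cGMP through pkg Br-cGMP and wild type control to pkg control. NAS3 ran from wild type Br-cGMP through pkg control and pkg Br-cGMP to wild type control. No neighbours in either order differed by more than the larger of their SDs.

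**Figure D4:**
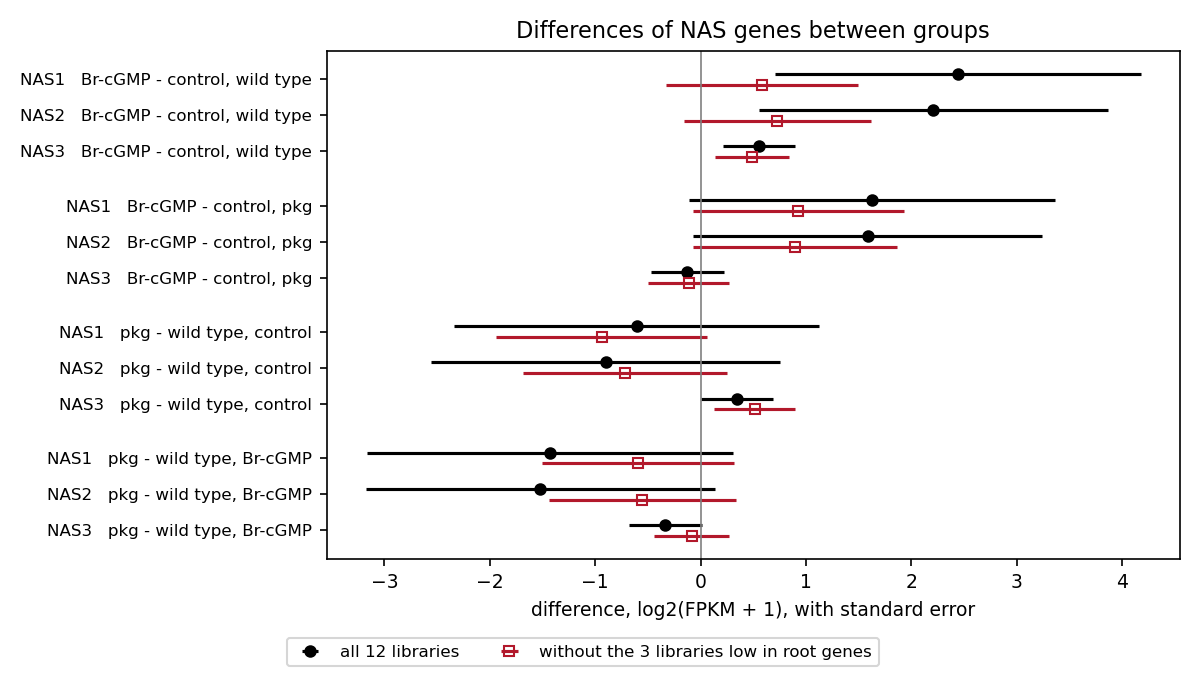
Differences of NAS1, NAS2 and NAS3 in the 4 pairwise comparisons (log2(FPKM + 1), bars give the standard error), with all 12 libraries (black circles) and without the 3 root-low libraries (red squares). The wild type response of NAS1 goes from 2.44 to 0.58, while that of NAS3 stays at 0.56 and 0.48.

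Genes that supply S-adenosylmethionine, the substrate of the synthases, did not pass the test in any comparison. Of 7 such genes with a name in the files, 4 were tested and 2 were listed at 0. The smallest adjusted p of the list was 0.437 by limma, for SAM1, an S-adenosylmethionine synthetase gene, in pkg against wild type under Br-cGMP (-0.53 ± 0.19). Under Br-cGMP, SAM1 averaged 144 ± 18.7 FPKM (SD, n = 3) in wild type and 99.8 ± 15.4 in pkg. IDI2, a gene of methionine recycling known from iron-deficient barley roots, stood at 47.1 ± 4.59 and 65.9 ± 15.1 FPKM in those groups (0.46 ± 0.18, adjusted p = 0.475 by limma). MTK1, the methylthioribose kinase gene, ranged from 52.9 to 110.1 FPKM over the 12 libraries, and ARD1, an acireductone dioxygenase gene of the same cycle, from 15.2 to 68.1 FPKM. The median difference of the 4 genes in the wild type response was 0.23, beside -0.01 over all features tested. None of the 4 lay lower in each root-low library than in all others.

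Of genes that use S-adenosylmethionine for ethylene or polyamines, 4 of 4 were tested and none passed (smallest adjusted p = 0.804 by limma). ACO1, an ethylene-forming oxidase gene, ranged from 3.37 to 54.2 FPKM. SAMDC, the S-adenosylmethionine decarboxylase gene, ranged from 36.5 to 77.2 FPKM and the spermidine synthase gene SPDSYN1 from 94.1 to 169.8 FPKM. ACC1, a synthase gene of the ethylene precursor, stayed at or under 2.42 FPKM. The median difference of the list in the wild type response was -0.18.

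Transporters of metals and of metal chelates were more varied in level. Of 35 named genes, 19 were tested, 10 were listed at 0 in all libraries and none passed in any comparison (smallest adjusted p = 0.475 by limma). In the wild type response 13 of 19 lay above control and 6 below, with a median of 0.22, beside -0.01 over all features. YSL15, a carrier of the iron complex of deoxymugineic acid, reached at most 0.592 FPKM. YSL2, a carrier of nicotianamine complexes, was listed at 0, as were the chlorophyll-binding protein genes CAB1R and CAB2R, which green seedlings use, so a listed 0 is not read as low expression. The ferrous iron transporter gene IRT1 ranged from 0.456 to 2.64 FPKM. It stood at 0.569 ± 0.111 FPKM (SD, n = 3) in wild type control and at 1.79 ± 0.736 in pkg control (0.80 ± 0.27, adjusted p = 0.679 by limma).

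Other transport genes differed widely in level, and NRAMP1 was weakly expressed. ZIP1, a zinc-regulated transporter gene, stood at 81.8 ± 20.3 FPKM (SD, n = 3) in wild type control and 192 ± 45.8 with Br-cGMP (1.22 ± 0.44, adjusted p = 0.882 by limma). Each treated library was above each control, as was so for 8.88% of all features tested. NRAMP1, a metal transporter gene, averaged 0.163 ± 0.151 FPKM in Br-cGMP-treated wild type and 1.69 ± 1.27 in treated pkg (1.12 ± 0.45, adjusted p = 0.475 by limma). The treated pkg libraries stood at 1.165, 0.769 and 3.14 FPKM. The last of them was root-low, and no treated wild type library was. MTP7 ranged from 7.78 to 23.5 FPKM. HMA5, a copper-transporting ATPase gene, was the 1 tested gene of the list that lay lower in each root-low library (at most 7.43 FPKM) than in all others (at least 7.85 FPKM), 1 of 19 beside 4.74% of all features. ZIP2, MTP4 and NRAMP1 went the other way. ZIP2 stood at 600 to 849 FPKM in the root-low libraries and at 247 to 523 FPKM in the other 9. MTP4 stood at 6.61 to 9.64 and 3.05 to 6.555 FPKM, and NRAMP1 at 1.37 to 3.14 and 0 to 1.165 FPKM. The share of all features placed higher in this way was not worked out. NRAMP5, the manganese importer of rice roots, stood at 1.25 to 15.7 FPKM in the root-low libraries and at 12.0 to 52.3 FPKM in the other 9.

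Among iron regulators, the bHLH gene BHLH062 was tested and IDEF1, a regulator of the iron shortage response, was listed at 0. BHLH062 ranged from 5.27 to 17.7 FPKM, and its smallest adjusted p was 0.564 by limma, in pkg against wild type under Br-cGMP (-0.82 ± 0.40). No name from the lists of iron storage genes and of later steps of phytosiderophore synthesis was found, and those steps are not analysed here.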

How the data were processed

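Seedling RNA-seq libraries were grouped by their titles, 3 in each of 4 groups. The authors' deposited columns name no unit and were taken as FPKM from their structure: multiplied by gene length they were whole multiples of 1 step per library, within 0.01, for 100% of values above 0, and this gave the recovered reads. CASAVA 1.8 and the aligner HISAT2 are named per the submitters' processing notes; which program counted reads, on which build and annotation, is not stated. The authors' FPKM held a further factor per library beside its total.

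Differences of log2(FPKM + 1) were estimated with limma 3.58.1 (R 4.3.3). The model had 1 mean per group over 12 libraries and a robust, trended prior. It took the 25238 features that reached 1 FPKM in 3 libraries, all 3 NAS genes among them, with Benjamini-Hochberg adjustment at 0.05. Because 1 FPKM was added, changes of weakly expressed genes are understated. Tables were made with pandas 2.3.3 and plots with matplotlib 3.10.9, under Python 3.11.15. The fit was checked on simulated data.

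The 3 genes and all gene lists were chosen with earlier results of these data known. From each list the text names up to 4 genes with the smallest p, any past the threshold, and a few more (YSL15, YSL2, HMA5, ZIP2, MTP4, NRAMP5 and IDEF1) chosen after their values were seen. The root and shoot markers named were also chosen with their values seen. The name TOM20, a mitochondrial import receptor, was left out of the transport list. Libraries of a group differed by a chi-square of 18.4 to 65.9 per degree of freedom, so none repeats another. The pkg libraries of the same number, control and Br-cGMP, deviated together (correlation 0.305 to 0.356). Both pkg libraries numbered 3 are root-low, and the part of this in the 3 correlations was not tested. A pairing is inferred from the data alone, since the labels give only numbers, and the main fit used none. No other comparison had all 3 pairs above 0.1. The highest value, 0.407, was between wild type control 3 and pkg control 3, which are both root-low and of different genotypes. Alternative settings changed the pseudocount, the filter, the scaling, the prior, or which groups, features and libraries entered, or added a replicate block, a root covariate or limma-voom.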

Additional observations from a re-analysis of the deposited data

How the results depend on the processing

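No NAS gene passed the adjusted threshold in any fit, and 339 of 342 alternative differences lay within 1 SD of the value reported, the SD being that of log2(FPKM + 1) within the groups compared, which for NAS1 and NAS2 is wide enough to include the changes of sign given above. The others all had the root gene mean as a covariate: NAS3 in the wild type response (0.23) and, under Br-cGMP, pkg against wild type for NAS1 (0.59) and NAS2 (0.45). Many of the 342 could not differ from the value reported. The filter, the prior, the replicate block, reference genes alone and the compared groups only leave a difference as it is. So does leaving out a library outside the comparison. The count of 339 is thus no measure of robustness. Leaving out each library gave 0.58 to 3.93 (NAS1), 0.73 to 3.44 (NAS2) and 0.33 to 0.69 (NAS3) for the wild type response; 0.09 to 2.64, -0.08 to 2.78 and -0.51 to 0.12 for the pkg response; -2.47 to 0.92, -2.38 to 0.76 and 0.22 to 0.58 between genotypes without Br-cGMP; -2.42 to -0.59, -2.56 to -0.55 and -0.72 to -0.09 with it; and -2.35 to 1.04, -2.28 to 0.86 and -1.07 to -0.43 for the interaction. A replicate block left the differences as they were, with a standard error of 1.00 in place of 1.73 for NAS1; in the wild type response, where the numbers do not pair the libraries, NAS1 and NAS2 then had an unadjusted p under 0.05; the calls in the 5 comparisons became 0, 0, 81, 80 and 1, and no adjusted call of a NAS gene changed. An unadjusted limma p under 0.05 also came up for NAS2 in the pkg response with the root covariate. It did so too for NAS1 in the wild type response without wild type control 1. Without pkg Br-cGMP 2 it came up for NAS3 under Br-cGMP and in the interaction. These fits are a few of many and the genes were picked with their levels in view. No conclusion is drawn from these unadjusted p-values, those with the replicate block included. That block also takes up the low level that the root-low libraries share, since all of them are replicate 3.

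Counts of features called moved more. The wild type response gave 5 with no filter, 2 and 1 with a pseudocount of 0.1 and 5 FPKM, 4 with a constant prior, 3 with the compared groups only and 0 to 1 without single libraries; the pkg response gave 0 to 2 without single libraries. Between genotypes without Br-cGMP, 86 became 12 with reference genes alone, 43 with the compared groups only, 29 without the root-low libraries and 49 to 88 without single libraries (49 and 52 without wild type control 1 and 2, 56 and 55 without pkg control 2 and 3). Under Br-cGMP, 86 became 54 with a pseudocount of 5, 8 with reference genes alone, 44 with the compared groups only, 35 without the root-low libraries, and 51 (without wild type Br-cGMP 3; 55 without pkg Br-cGMP 3) to 200 (without pkg Br-cGMP 1). The interaction gave 2 with no filter or a pseudocount of 0.1, 0 with a pseudocount of 5, limma-voom, reference genes alone or no root-low library, and 1 to 3 without single libraries. Fewer features or libraries were in several of these fits; otherwise the cause was not tested. With 4 reads for NAS1 in wild type control 3 and pkg control 3, depth limits the lowest values.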
